A study of Mus musculus with 11 samples.

Results

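The genes described here belong to the integrated stress response and the unfolded protein response of mouse liver cancer cell lines. They are 36 genes named in a list of ATF4, serine and amino acid, and endoplasmic reticulum (ER) stress genes, out of 36528 gene IDs in the tables, and all 36 passed the filter on low counts. They were split by role into an ATF4 arm of 26 genes (ATF4, its fellow stress regulators, and enzymes, carriers and secreted or receptor proteins regarded as ATF4 targets) and an ER arm of 10 genes (XBP1, ER chaperones and degradation factors). PolyA RNA was sequenced from lines grown out of liver tumours that carried TAZ-S89A (5 libraries), YAP-5SA (3 libraries, spelled YAP-S5A in the sample labels) or YAP-S127A (3 libraries). YAP and TAZ are coactivators of TEAD transcription factors, and these substitutions replace serines through which Hippo pathway kinases restrain them. The labels give no strain, promoter, age or treatment, and no line without such a mutant was analysed here, so each comparison is between mutants. The labels do not say whether libraries of a group are separate tumours, lines or cultures, so p-values measure the spread between libraries, which may be technical.

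In the integrated stress response, the kinases PERK, GCN2, PKR and HRI phosphorylate the initiation factor eIF2, which slows translation in general while ATF4 is translated more efficiently. ATF4 then induces genes for amino acid uptake and synthesis, mitochondrial one-carbon metabolism and its own feedback control. The unfolded protein response of the ER shares PERK with it and adds the sensors IRE1, which splices Xbp1 mRNA, and ATF6, whose cleaved form joins XBP1 in raising ER chaperones and degradation factors. ATF4 is controlled largely at translation and XBP1 by splicing, and neither step was measured by these gene counts.

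The libraries held 20071144 to 49159713 counts, with TAZ-S89A replicates 4 and 5 as the smallest, and the IDs of those samples follow a separate numbering, called the second ID series here. Within TAZ-S89A, the closest libraries were replicates 4 and 5 (chi-square per degree of freedom 2.02 over genes) and replicates 1 and 2 (5.85), which still differed beyond sampling noise and were kept apart. Such a difference does not show that they are separate tumours or lines. YAP-S127A replicates 1 and 2 were nearly as close (6.60), and they were summed in no fit. Of 8 hepatocyte markers, 6 were at or near 0 in every library (Serpina1a had 0 counts, and Alb, the highest of the 6, reached 1.31 CPM), while Afp, a fetal liver gene, ran from 33.2 to 68.7 CPM. Hnf4a, a liver transcription factor, had 0.585 to 0.802 CPM in TAZ-S89A, 6.72 to 7.67 CPM in YAP-5SA and 7.62 to 9.25 CPM in YAP-S127A. The 4 biliary markers summed to 20.8 to 33.8 CPM in TAZ-S89A, 2532 to 3997 CPM in YAP-5SA and 162 to 203 CPM in YAP-S127A. The YAP-5SA sum came from Krt7 (1398.5 to 2232 CPM) and Krt19 (1124 to 1759 CPM). Sox9 was lowest in YAP-5SA, at 6.24 to 9.20 CPM. It had 13.5 to 22.4 CPM in TAZ-S89A and 18.8 to 19.5 CPM in YAP-S127A. Epcam stayed at 0.178 CPM or less in every library. The 6 mesenchymal or stellate markers summed to 1813 to 3443 CPM in TAZ-S89A, 280.2 to 379 CPM in YAP-5SA and 5910.4 to 6427 CPM in YAP-S127A. These did not move together, since Col1a2 had 1501 to 3057 CPM in TAZ-S89A, 14.7 to 17.8 CPM in YAP-5SA and 2140.1 to 2355 CPM in YAP-S127A, whereas Col1a1 had 27.5 to 36.5 CPM in TAZ-S89A, 256 to 359 CPM in YAP-5SA and 2756 to 3055 CPM in YAP-S127A. The 5 macrophage or leukocyte markers summed to 7.93 to 9.37 CPM in TAZ-S89A, 51.5 to 54.0 CPM in YAP-5SA and 14.9 to 15.1 CPM in YAP-S127A, with Adgre1 at 0 counts in TAZ-S89A and YAP-S127A. Endothelial markers summed to 1.98 CPM or less. The part of these marker differences in the results below was not tested, and in bulk RNA fewer cells of a type and less RNA per cell cannot be told apart.

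Promoters were searched for motifs known from ATF4 targets and from ER chaperone genes, and 6 are printed here from RefSeq (GRCm38.p6), each as the 250 bases before the annotated start, 5′ to 3′ on the strand of its gene. Searched on both strands of 300 bases (250 before to 50 after the start) were the CARE motif TGATGNAA, which ATF4 with a C/EBP partner is known to bind, the ER stress elements ERSE (CCAAT, then 9 bases of any kind, then CCACG) and ERSE-II (ATTGG, 1 base of any kind, CCACG), and the core of the UPR element (TGACGTGG). Capitals mark the matches, and no 2 matches overlapped. Nupr1, Chac1 and Asns are shown for the ATF4 arm because each holds a CARE match, and Hspa5, Hsp90b1 and Herpud1 for the ER arm because they hold ERSE matches, an ERSE-II match, or, in Herpud1, a CARE match as well.
Nupr1 (chr7:126625471-126625720, minus strand): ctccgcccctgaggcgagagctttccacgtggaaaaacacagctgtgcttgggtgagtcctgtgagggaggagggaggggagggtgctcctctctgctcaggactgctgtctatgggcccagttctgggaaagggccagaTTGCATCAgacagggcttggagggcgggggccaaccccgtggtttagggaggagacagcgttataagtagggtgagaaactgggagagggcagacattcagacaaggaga
Chac1 (chr2:119350992-119351241, plus strand): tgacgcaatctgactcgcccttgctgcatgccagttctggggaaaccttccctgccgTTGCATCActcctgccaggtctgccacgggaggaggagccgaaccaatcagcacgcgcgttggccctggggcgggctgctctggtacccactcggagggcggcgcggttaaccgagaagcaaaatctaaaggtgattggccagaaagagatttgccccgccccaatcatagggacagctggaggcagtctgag
Asns (chr6:7693210-7693459, minus strand): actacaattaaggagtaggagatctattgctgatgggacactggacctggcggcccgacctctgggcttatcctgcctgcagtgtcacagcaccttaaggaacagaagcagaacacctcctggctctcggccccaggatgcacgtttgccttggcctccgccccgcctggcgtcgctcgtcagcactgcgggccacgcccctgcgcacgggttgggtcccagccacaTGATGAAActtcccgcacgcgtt
Hspa5 (chr2:34771840-34772089, plus strand): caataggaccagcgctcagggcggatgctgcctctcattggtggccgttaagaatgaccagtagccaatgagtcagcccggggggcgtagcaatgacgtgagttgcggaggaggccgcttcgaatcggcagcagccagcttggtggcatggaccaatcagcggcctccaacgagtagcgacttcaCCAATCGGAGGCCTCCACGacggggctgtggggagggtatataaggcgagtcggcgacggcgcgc
Hsp90b1 (chr10:86705445-86705694, minus strand): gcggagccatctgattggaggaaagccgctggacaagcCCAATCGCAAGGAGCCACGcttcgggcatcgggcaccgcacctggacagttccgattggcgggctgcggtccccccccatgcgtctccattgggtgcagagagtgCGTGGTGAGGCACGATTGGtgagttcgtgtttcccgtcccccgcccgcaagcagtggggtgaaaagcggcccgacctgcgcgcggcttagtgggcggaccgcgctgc
Herpud1 (chr8:94386179-94386428, plus strand): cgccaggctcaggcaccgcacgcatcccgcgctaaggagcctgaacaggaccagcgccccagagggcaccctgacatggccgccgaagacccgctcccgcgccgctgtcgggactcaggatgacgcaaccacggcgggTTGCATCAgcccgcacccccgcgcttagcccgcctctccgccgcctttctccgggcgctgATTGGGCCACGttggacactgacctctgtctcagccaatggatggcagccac
Counted from the start site, the CARE match began at position -110 in Nupr1, -193 in Chac1 and -23 in Asns. The ERSE match began at -65 in Hspa5 and the 2 ERSE matches at -212 and -107 in Hsp90b1, and Herpud1 had CARE at -112 and ERSE-II at -52.

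Promoters were found in the table for 22 of the 26 ATF4 arm genes and all 10 ER arm genes. CARE was present in 8 of 22 ATF4 arm genes (36.4%: Nupr1, Chac1, Asns, Trib3, Fgf21, Pycr1, Pck2 and Vldlr) and 1 of 10 ER arm genes, against 4.51% of the 27025 genes with a promoter. ERSE was found in 4 of 10 ER arm genes (Hspa5, Calr, Hsp90b1 and Creld2) and 0 of 22 ATF4 arm genes, against 0.137% of all genes, and ERSE-II in Herpud1, against 0.0444%. The UPR core matched in no gene of either arm and in 0.714% of all genes. Each match is a description of these letters, not of binding. The motifs were chosen as known from genes of these kinds, so the shares in the arms are not independent of how the lists were made.

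**Figure D1:**
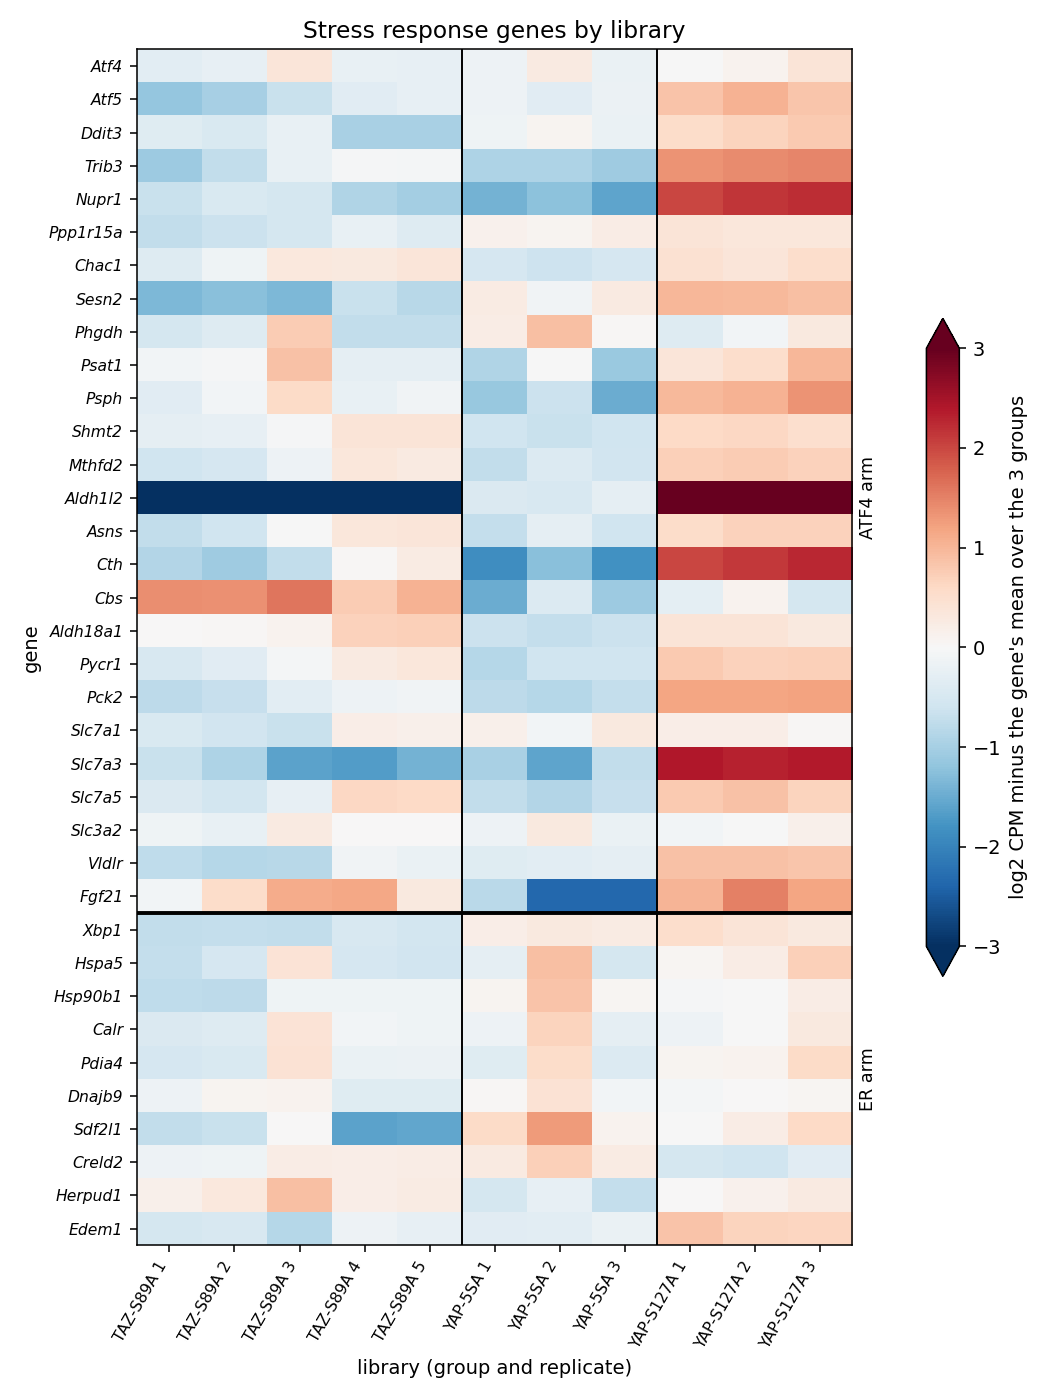
Each row is a gene and each column a library, with TAZ-S89A left, YAP-5SA in the middle and YAP-S127A right; colour is log2 CPM minus the gene's mean over the 3 groups, and colours end at 3 in either direction. The YAP-S127A columns are red through most of the 26 ATF4 arm rows, while the 10 ER arm rows show no such block; Fgf21 at 0 counts is drawn at a value set by the prior count of 2.

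Most ATF4 arm genes had their highest group mean in YAP-S127A. The highest group mean of ER arm genes was divided between the groups, mainly the YAP groups, and most had their lowest mean in TAZ-S89A. The YAP-S127A mean was the highest of the 3 in 24 of 26 ATF4 arm genes, the exceptions being Cbs, highest in TAZ-S89A, and Phgdh, highest in YAP-5SA. Of the 10 ER arm genes, YAP-5SA had the highest mean in 5, YAP-S127A in 4 and TAZ-S89A in 1. The lowest mean was in TAZ-S89A for 8 of them, in YAP-5SA for 1 and in YAP-S127A for 1. The order of the means was not counted over all genes tested, so these counts have no background share beside them. Of the ER arm genes lowest in TAZ-S89A, only Xbp1 and Sdf2l1 were called lower there than in both YAP groups (edgeR adjusted p under 0.05). Hspa5, Calr, Pdia4 and Dnajb9 were called in no comparison. In TAZ-S89A against YAP-S127A, 1 ATF4 arm gene was called higher, 17 were called lower and 8 were not called at an edgeR quasi-likelihood adjusted p under 0.05. The background was wide, since 57.6% of the 18224 genes tested were called in that comparison, 27.0% higher and 30.6% lower. The median log2 fold change of the 26 genes was -0.78, beside -0.03 over all genes tested.

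Against YAP-5SA, 11 ATF4 arm genes were called higher in TAZ-S89A, 4 lower and 11 not called, where 57.9% of all genes were called (26.9% higher, 31.0% lower); the medians were 0.47 in the arm and -0.04 over all genes. In YAP-5SA against YAP-S127A, 0 ATF4 arm genes were called higher, 20 lower and 6 not called, where 55.2% of all genes were called (28.2% higher, 27.0% lower). That arm's median was -1.19, beside 0.01 over all genes, and DESeq2 and limma-voom also called 0 higher. At an unadjusted p under 0.05 by edgeR, also 0 ATF4 arm genes were higher in YAP-5SA.

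ER arm genes were called in both directions in each comparison. In TAZ-S89A against YAP-S127A, 1 of its 10 genes was called higher and 3 lower, with a median log2 fold change of -0.42. In TAZ-S89A against YAP-5SA the counts were also 1 higher and 3 lower, with a median of -0.30. In YAP-5SA against YAP-S127A, 1 was called higher and 2 lower, with a median of -0.03. With the ID series as a term in the model, or without TAZ-S89A replicates 4 and 5, the counts in TAZ-S89A against YAP-5SA were 1 higher and 5 lower of 10, where 62.7% and 60.6% of all genes were called. No YAP library is in the second ID series. Both settings thus compare TAZ-S89A replicates 1 to 3 with the YAP libraries and are not separate checks. With an absolute log2 fold change of 1 or more required as well, 15 of the 36 genes of both arms were called in TAZ-S89A against YAP-S127A (32.2% of all genes), 8 in TAZ-S89A against YAP-5SA (33.8%) and 18 in YAP-5SA against YAP-S127A (34.4%). The TAZ-S89A comparisons share their libraries, as do those with YAP-S127A, so the 3 sets of counts are not independent.

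Per library, the mean log2 CPM of the 26 ATF4 arm genes was 4.88, 4.98, 5.23, 5.31 and 5.26 in TAZ-S89A, 4.87, 4.97 and 4.84 in YAP-5SA and 6.35, 6.44 and 6.45 in YAP-S127A. The 3 YAP-S127A libraries stood above all the others, and TAZ-S89A and YAP-5SA overlapped. The mean log2 CPM of the 10 ER arm genes was 6.34, 6.42, 6.88, 6.48 and 6.47 in TAZ-S89A, 6.75, 7.31 and 6.64 in YAP-5SA and 6.87, 6.91 and 7.13 in YAP-S127A, and there all 3 groups overlapped. The ATF4 arm mean minus the ER arm mean was -1.39 ± 0.20 in TAZ-S89A (SD, n = 5), -2.01 ± 0.29 in YAP-5SA (n = 3) and -0.56 ± 0.11 in YAP-S127A (n = 3), with no overlap between groups. The groups thus differed by -0.83 for TAZ-S89A minus YAP-S127A, 0.62 for TAZ-S89A minus YAP-5SA and -1.45 for YAP-5SA minus YAP-S127A. With the median over the genes of each arm in place of the mean, the first of these was -0.49. These means are on a log scale, weigh each gene alike and carry no test.

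**Figure D2:**
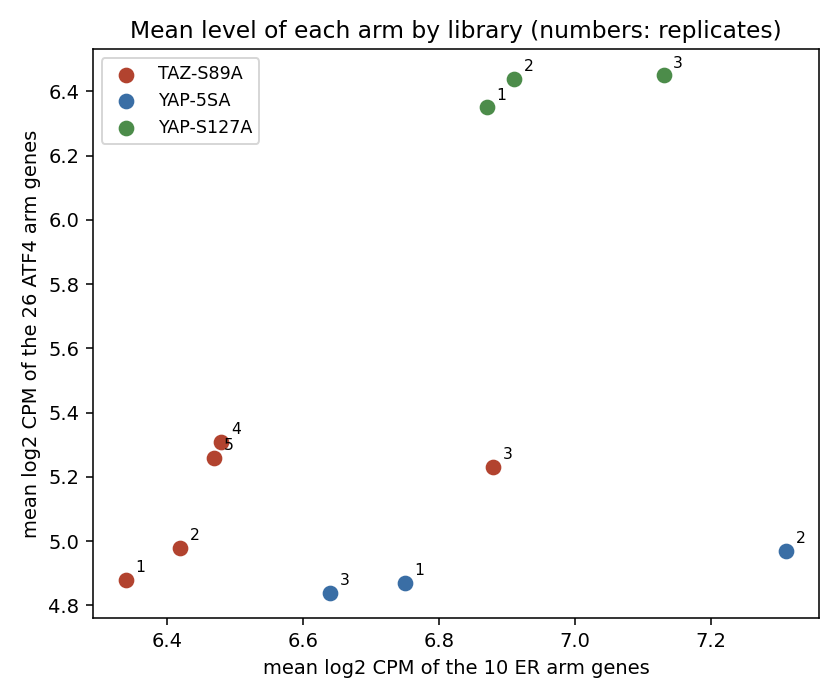
Each point is a library, placed by the mean log2 CPM of the 10 ER arm genes (x axis) and of the 26 ATF4 arm genes (y axis), with replicate numbers beside the points. YAP-S127A libraries lie at 6.35 to 6.45 on the y axis and the other 8 at 4.84 to 5.31, while the groups overlap along the x axis.

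Atf4 itself, which encodes the transcription factor at the centre of the response, had 339, 357, 539, 360.4 and 357 CPM in the 5 TAZ-S89A libraries, 382, 508 and 365 CPM in the 3 YAP-5SA libraries and 419, 456 and 554 CPM in the 3 YAP-S127A libraries. One library stood high in each group and the groups overlapped. Its log2 fold change was -0.29 ± 0.21 (SE, adjusted p = 0.262) in TAZ-S89A against YAP-S127A, -0.10 ± 0.21 (SE, adjusted p = 0.712) in TAZ-S89A against YAP-5SA and -0.19 ± 0.24 (SE, adjusted p = 0.526) in YAP-5SA against YAP-S127A. Atf4 mRNA was thus called in none of the 3 comparisons, and adjusted p over the alternatives ran from 0.0892 to 0.667, 0.333 to 1 and 0.269 to 0.856 in that order of comparisons.

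Nupr1 (chr7), a small stress-induced chromatin protein, had 14.0, 16.2, 15.6, 11.9 and 11 CPM in the 5 TAZ-S89A libraries, 8.31, 9.49 and 7.46 CPM in the 3 YAP-5SA libraries and 90.5, 99.4 and 104 CPM in the 3 YAP-S127A libraries. The YAP-S127A libraries were far above the rest, and the YAP-5SA libraries were below those of TAZ-S89A. Nupr1 was 7.11-fold lower in TAZ-S89A than in YAP-S127A (log2 fold change -2.83 ± 0.14 SE, adjusted p = 9.63e-10) and 11.6-fold lower in YAP-5SA than in YAP-S127A (-3.54 ± 0.18 SE, adjusted p = 1.55e-09). Against YAP-5SA it was 1.64-fold higher in TAZ-S89A (0.71 ± 0.15 SE, adjusted p = 0.00105). Trib3, a pseudokinase that feeds back on ATF4 and CHOP, had 16.9, 21.6, 31.0, 35.2 and 34.4 CPM in the 5 TAZ-S89A libraries, 19.0, 18.9 and 17.4 CPM in the 3 YAP-5SA libraries and 91.4, 96.1 and 100.5 CPM in the 3 YAP-S127A libraries. All YAP-S127A libraries were above 91 CPM and the other groups overlapped. The log2 fold change of Trib3 was -1.79 ± 0.20 (SE, adjusted p = 3.65e-06) in TAZ-S89A against YAP-S127A and -2.38 ± 0.24 (SE, adjusted p = 1.47e-06) in YAP-5SA against YAP-S127A. In TAZ-S89A against YAP-5SA it was 0.59 ± 0.21 (SE, adjusted p = 0.0256), a call lost without YAP-5SA replicate 1 (adjusted p = 0.0607), replicate 2 (0.0598) or replicate 3 (0.0831) and without TAZ-S89A replicates 4 and 5 (0.118), over a range of 0.00202 to 0.118.

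Sesn2, which restrains mTORC1 when leucine is scarce, had 11.2, 11.9, 11.2, 18.1 and 16.1 CPM in the 5 TAZ-S89A libraries, 33.8, 26.5 and 34.7 CPM in the 3 YAP-5SA libraries and 56.8, 56.2 and 53.9 CPM in the 3 YAP-S127A libraries. The groups did not overlap, with TAZ-S89A lowest and YAP-S127A highest. The log2 fold change was -2.03 ± 0.17 (SE, adjusted p = 1.76e-07) in TAZ-S89A against YAP-S127A, -1.22 ± 0.17 (SE, adjusted p = 2.65e-05) in TAZ-S89A against YAP-5SA and -0.81 ± 0.19 (SE, adjusted p = 0.00241) in YAP-5SA against YAP-S127A. On its chromosome 4, all genes tested had a median of 0.49 in TAZ-S89A against YAP-5SA, the other way, and -0.53 in YAP-5SA against YAP-S127A, the same way. Atf5, an ATF4 relative induced by stress, averaged 114 ± 30.4 CPM in TAZ-S89A, 152 ± 10.6 CPM in YAP-5SA and 336 ± 26.3 CPM in YAP-S127A (means here and below are ± SD over 5, 3 and 3 libraries). It was 2.93-fold lower in TAZ-S89A than in YAP-S127A (log2 fold change -1.55 ± 0.20 SE, adjusted p = 1.53e-05) and 2.21-fold lower in YAP-5SA than in YAP-S127A (-1.14 ± 0.23 SE, adjusted p = 0.000805). The TAZ-S89A and YAP-5SA libraries overlapped, with -0.41 ± 0.20 (SE, adjusted p = 0.0991) as the log2 fold change and an adjusted p of 0.0023 without TAZ-S89A replicates 4 and 5, over a range of 0.000676 to 0.22.

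Ddit3, which encodes the pro-apoptotic factor CHOP, averaged 60.2 ± 14.1 CPM in TAZ-S89A, 84.5 ± 8.72 CPM in YAP-5SA and 142 ± 10.9 CPM in YAP-S127A. The log2 fold change was -1.24 ± 0.18 (SE, adjusted p = 4.13e-05) in TAZ-S89A against YAP-S127A and -0.75 ± 0.20 (SE, adjusted p = 0.00628) in YAP-5SA against YAP-S127A. In TAZ-S89A against YAP-5SA it was -0.49 ± 0.18 (SE, adjusted p = 0.0303), and that call was lost without YAP-5SA replicate 1 (adjusted p = 0.0603) or replicate 2 (0.117), without TAZ-S89A replicate 4 (0.0537) or replicate 5 (0.0575) and without both of the last (0.106), over a range of 0.00758 to 0.206. Ppp1r15a, the stress-induced subunit of the phosphatase that dephosphorylates eIF2, averaged 17.4 ± 2.51 CPM in TAZ-S89A, 27.0 ± 1.35 CPM in YAP-5SA and 31.3 ± 0.791 CPM in YAP-S127A. It was lower in TAZ-S89A than in YAP-S127A (log2 fold change -0.85 ± 0.12 SE, adjusted p = 5.47e-05) and than in YAP-5SA (-0.63 ± 0.13 SE, adjusted p = 0.000615), and the YAP groups were not called apart (-0.21 ± 0.14 SE, adjusted p = 0.217). Chac1, which breaks down glutathione, averaged 21.3 ± 4.66 CPM in TAZ-S89A, 13.5 ± 0.595 CPM in YAP-5SA and 26.8 ± 1.60 CPM in YAP-S127A. It was lower in YAP-5SA than in YAP-S127A (log2 fold change -0.99 ± 0.19 SE, adjusted p = 0.000473) and higher in TAZ-S89A than in YAP-5SA (0.66 ± 0.17 SE, adjusted p = 0.00447). TAZ-S89A against YAP-S127A gave -0.34 ± 0.16 (SE, adjusted p = 0.0943), with adjusted p = 0.0185 without TAZ-S89A replicates 4 and 5, over a range of 0.0116 to 0.248.

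Atf5, Nupr1, Ppp1r15a and Fgf21 lie on chromosome 7, where all genes tested had a median log2 fold change of -0.70 in TAZ-S89A against YAP-S127A and -0.54 in TAZ-S89A against YAP-5SA. Its part in their values was not tested. Atf5 overlaps Nup62 and Il4i1b, Ddit3 overlaps Mbd6 and Mars1, Ppp1r15a overlaps Tulp2 and Psph overlaps Cct6a in the annotation. Slc7a3 shares 1086 bases with Snx12 and Hspa5 shares 1921 bases with Rabepk. The strand setting of the counting is not known, so reads of these pairs cannot be told apart where they overlap.

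**Figure D3:**
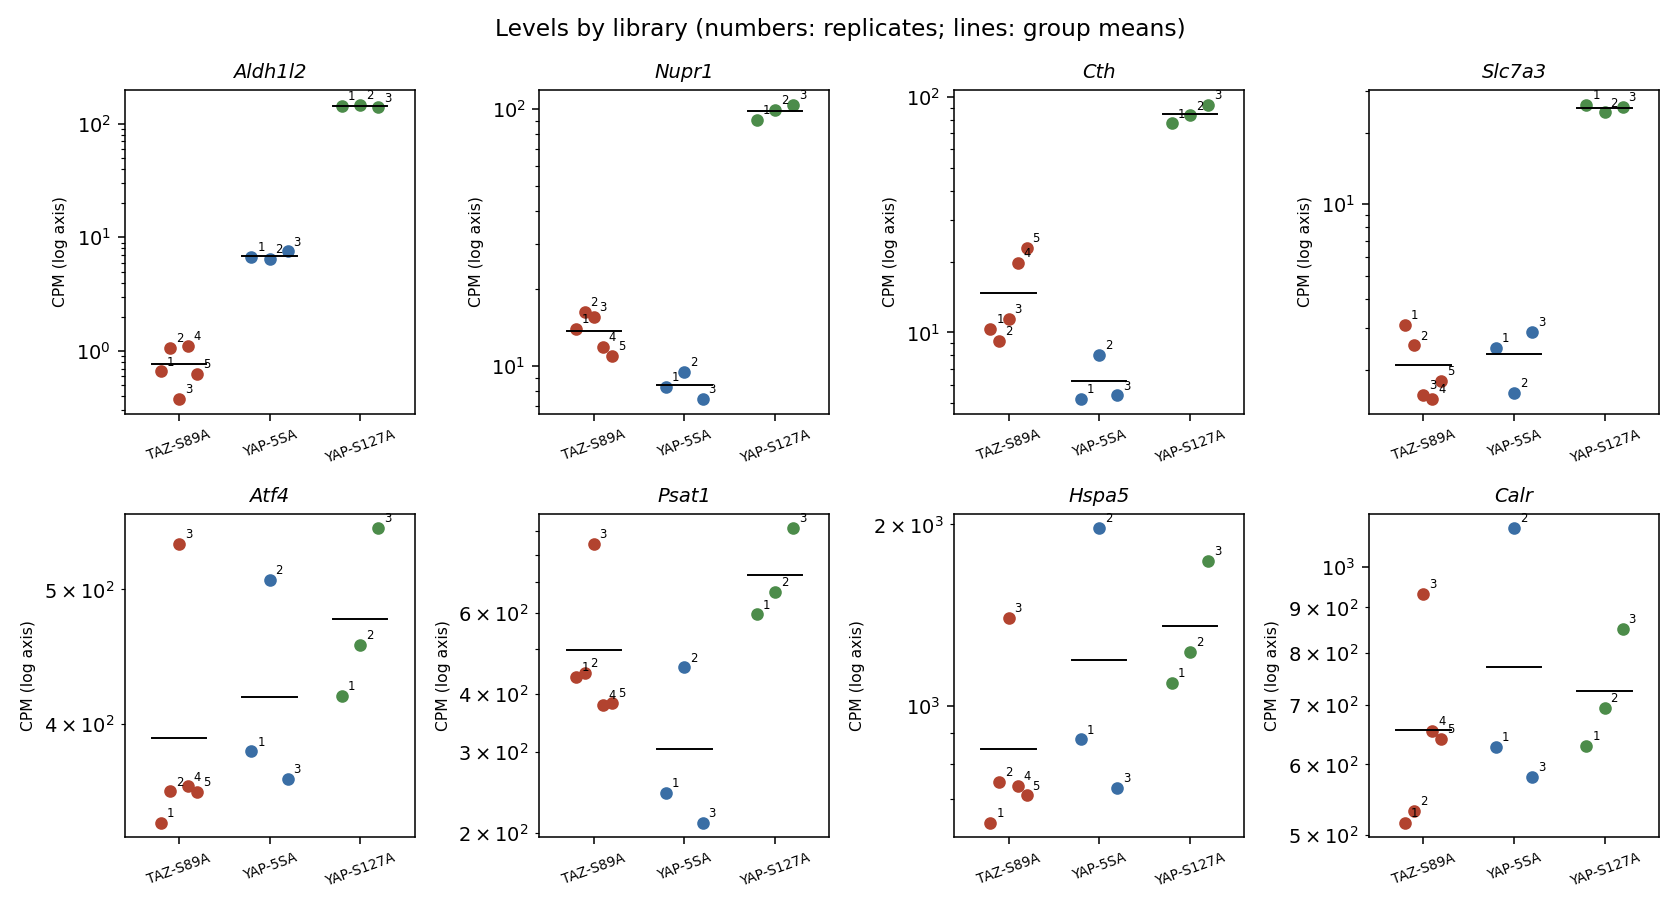
CPM of 8 genes on log axes, with TAZ-S89A left, YAP-5SA in the middle and YAP-S127A right; points are libraries with their replicate numbers and lines are group means. In the upper row YAP-S127A stands apart from both other groups (Nupr1 at 90.5 CPM or more, against 16.2 CPM or less), and in the lower row 1 library stands high in each group, as for Hspa5 at 1401 CPM in TAZ-S89A replicate 3.

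The largest fitted fold change among the 36 genes was that of a mitochondrial one-carbon enzyme. Aldh1l2 (chr10:83487447-83534146), which oxidises formyl-tetrahydrofolate in mitochondria and yields NADPH, had 0.661, 1.07, 0.377, 1.10 and 0.626 CPM in the 5 TAZ-S89A libraries, 6.71, 6.45 and 7.51 CPM in the 3 YAP-5SA libraries and 144, 147 and 139 CPM in the 3 YAP-S127A libraries. The 3 groups did not overlap, and the counts were low in TAZ-S89A. Aldh1l2 was 186-fold lower in TAZ-S89A than in YAP-S127A (log2 fold change -7.54 ± 0.23 SE, adjusted p = 8.11e-12), 8.95-fold lower in TAZ-S89A than in YAP-5SA (-3.16 ± 0.22 SE, adjusted p = 2.76e-08) and 20.8-fold lower in YAP-5SA than in YAP-S127A (-4.38 ± 0.24 SE, adjusted p = 3.93e-09). Its lowest library held 13 counts. The other mitochondrial folate enzymes differed by far less. Mthfd2, which converts methylene-tetrahydrofolate, averaged 59.8 ± 17.5 CPM in TAZ-S89A, 42.4 ± 4.76 CPM in YAP-5SA and 104 ± 2.69 CPM in YAP-S127A, and Shmt2, which makes glycine and methylene-tetrahydrofolate from serine, averaged 198 ± 44.2 CPM in TAZ-S89A, 123 ± 3.05 CPM in YAP-5SA and 282 ± 13.8 CPM in YAP-S127A.

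Mthfd2 was lower in TAZ-S89A than in YAP-S127A (log2 fold change -0.80 ± 0.20 SE, adjusted p = 0.00339) and lower in YAP-5SA than in YAP-S127A (-1.30 ± 0.23 SE, adjusted p = 0.000278). In TAZ-S89A against YAP-5SA it was 0.50 ± 0.21 (SE, adjusted p = 0.0522), past the threshold without TAZ-S89A replicate 1 (adjusted p = 0.0157) or replicate 2 (0.0248), over a range of 0.0157 to 0.262. With all libraries, Mthfd2 was called higher by DESeq2 (adjusted p = 0.0425). The same held for edgeR with upper-quartile factors (0.0319) or no filter on low counts (0.0422). Shmt2 was lower in YAP-5SA than in YAP-S127A (log2 fold change -1.20 ± 0.21 SE, adjusted p = 0.000233) and higher in TAZ-S89A than in YAP-5SA (0.69 ± 0.19 SE, adjusted p = 0.00602). In TAZ-S89A against YAP-S127A it was -0.51 ± 0.18 (SE, adjusted p = 0.0268), a call lost without TAZ-S89A replicate 1 (adjusted p = 0.0604), 2 (0.0598) or 3 (0.0811) or YAP-S127A replicate 1 (0.0773) or 2 (0.085), over a range of 5.73e-05 to 0.085.

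Serine is made from a glycolytic intermediate by PHGDH, PSAT1 and PSPH in turn. Psph and Psat1 had their highest mean in YAP-S127A and their lowest in YAP-5SA. The groups overlapped for Phgdh, and TAZ-S89A overlapped both YAP groups for Psat1. Psph, the last step, had 109, 129.8, 203, 117 and 126.9 CPM in the 5 TAZ-S89A libraries, 62.1, 88.0 and 49.1 CPM in the 3 YAP-5SA libraries and 268, 285 and 352 CPM in the 3 YAP-S127A libraries. The groups did not overlap, with YAP-S127A highest and YAP-5SA lowest. Psph differed by a log2 value of -1.14 ± 0.23 (SE, adjusted p = 0.000744) in TAZ-S89A against YAP-S127A, 1.04 ± 0.24 (SE, adjusted p = 0.00207) in TAZ-S89A against YAP-5SA and -2.18 ± 0.27 (SE, adjusted p = 1.23e-05) in YAP-5SA against YAP-S127A. Psat1 had 435, 445, 845, 378 and 382 CPM in the 5 TAZ-S89A libraries, 244, 457 and 211 CPM in the 3 YAP-5SA libraries and 595, 665 and 913 CPM in the 3 YAP-S127A libraries. TAZ-S89A replicate 3 was above 2 of the 3 YAP-S127A libraries, so those groups overlapped. YAP-5SA replicate 2, at 457 CPM, lay within the range of TAZ-S89A, so these groups overlapped as well. YAP-5SA was lower than YAP-S127A (log2 fold change -1.25 ± 0.36 SE, adjusted p = 0.00982).

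For Psat1 in TAZ-S89A, the log2 fold change was -0.54 ± 0.32 (SE, adjusted p = 0.159) against YAP-S127A, with adjusted p = 0.0202 without TAZ-S89A replicate 3 and a range of 0.0202 to 0.522. Against YAP-5SA it was 0.71 ± 0.33 (SE, adjusted p = 0.0802), with adjusted p = 0.0163 when YAP-5SA replicate 2 was left out, 0.0482 when TAZ-S89A replicate 4 was, 0.0235 when TAZ-S89A replicates 4 and 5 both were, and a range of 0.0116 to 0.278. With all libraries, Psat1 was called higher by DESeq2 (adjusted p = 0.0277) and by edgeR with upper-quartile factors (0.0434). Phgdh, the first step, had 55.1, 61.1, 133, 47.5 and 47.4 CPM in the 5 TAZ-S89A libraries, 92.5, 148 and 81.3 CPM in the 3 YAP-5SA libraries and 60.3, 75.1 and 97.7 CPM in the 3 YAP-S127A libraries. The 3 groups overlapped. For Phgdh the log2 fold change was -0.17 ± 0.33 (SE, adjusted p = 0.671) in TAZ-S89A against YAP-S127A, -0.64 ± 0.32 (SE, adjusted p = 0.108) in TAZ-S89A against YAP-5SA and 0.46 ± 0.37 (SE, adjusted p = 0.302) in YAP-5SA against YAP-S127A. Without TAZ-S89A replicate 3 the comparison with YAP-5SA had an adjusted p of 0.00103, over a range of 0.00103 to 0.622.

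Both genes of cysteine synthesis were higher in TAZ-S89A than in YAP-5SA, but against YAP-S127A one was lower and the other higher. Cth, which cleaves cystathionine to cysteine, had 10.3, 9.18, 11.4, 19.8 and 22.8 CPM in the 5 TAZ-S89A libraries, 5.21, 8.06 and 5.40 CPM in the 3 YAP-5SA libraries and 77.1, 83.4 and 92.5 CPM in the 3 YAP-S127A libraries. The 3 groups did not overlap, and TAZ-S89A replicates 4 and 5 were above the other TAZ-S89A libraries. Cth was 5.78-fold lower in TAZ-S89A than in YAP-S127A (log2 fold change -2.53 ± 0.27 SE, adjusted p = 2.2e-06), 13.5-fold lower in YAP-5SA than in YAP-S127A (-3.76 ± 0.34 SE, adjusted p = 5.06e-07) and 2.34-fold higher in TAZ-S89A than in YAP-5SA (1.23 ± 0.29 SE, adjusted p = 0.00241). Cbs, which makes the cystathionine, had 3.14, 3.05, 3.63, 2.0 and 2.42 CPM in the 5 TAZ-S89A libraries, 0.374, 0.861 and 0.508 CPM in the 3 YAP-5SA libraries and 0.936, 1.25 and 0.778 CPM in the 3 YAP-S127A libraries. Its levels were low throughout, and every TAZ-S89A library was above every other.

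Cbs was 2.92-fold higher in TAZ-S89A than in YAP-S127A (log2 fold change 1.55 ± 0.28 SE, adjusted p = 0.000379) and 4.88-fold higher than in YAP-5SA (2.29 ± 0.30 SE, adjusted p = 1.69e-05). Under a stricter filter, which asks for 1 CPM or more in 3 libraries and for a mean log2 CPM of 1 or more, Cbs was not tested. All genes tested on its chromosome 17 had a median of 0.95 in TAZ-S89A against YAP-5SA and 0.20 against YAP-S127A. In YAP-5SA against YAP-S127A that median was -0.70, and its part in the Cbs values was not tested. The YAP groups gave -0.74 ± 0.34 (SE, adjusted p = 0.0772), with an adjusted p of 0.0176 without YAP-5SA replicate 2, 0.0443 without TAZ-S89A replicates 4 and 5 and a range of 0.0105 to 0.248.

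Asns, asparagine synthetase, had 67.9, 75.0, 112, 142 and 145 CPM in the 5 TAZ-S89A libraries, 69.0, 94.4 and 75.2 CPM in the 3 YAP-5SA libraries and 167, 184 and 184 CPM in the 3 YAP-S127A libraries. YAP-S127A was above both other groups, which overlapped. The log2 fold change was -1.16 ± 0.27 (SE, adjusted p = 0.00233) in YAP-5SA against YAP-S127A. In TAZ-S89A against YAP-S127A it was -0.72 ± 0.24 (SE, adjusted p = 0.0183), a call lost without YAP-S127A replicate 2 (adjusted p = 0.0548) or replicate 3 (0.0529), over a range of 0.000174 to 0.0548. TAZ-S89A against YAP-5SA gave 0.45 ± 0.24 (SE, adjusted p = 0.132), with an adjusted p of 0.0397 without TAZ-S89A replicate 1 and a range of 0.0397 to 0.664. Pck2, the mitochondrial enzyme that makes phosphoenolpyruvate, had 55.1, 58.8, 76.5, 84.9 and 87.6 CPM in the 5 TAZ-S89A libraries, 54.8, 52.5 and 57.5 CPM in the 3 YAP-5SA libraries and 214, 217 and 220.2 CPM in the 3 YAP-S127A libraries. YAP-S127A lay far above the other groups, which overlapped.

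Pck2 was 2.99-fold lower in TAZ-S89A than in YAP-S127A (log2 fold change -1.58 ± 0.16 SE, adjusted p = 1.46e-06) and 3.95-fold lower in YAP-5SA than in YAP-S127A (-1.98 ± 0.19 SE, adjusted p = 9.44e-07). All genes tested on its chromosome 14 had a median of -0.53 in the first of these. TAZ-S89A against YAP-5SA gave 0.40 ± 0.17 (SE, adjusted p = 0.052), past the threshold without TAZ-S89A replicate 1 (adjusted p = 0.0184) or replicate 2 (0.029), over a range of 0.0184 to 0.234. With all libraries, Pck2 was called higher by DESeq2 (adjusted p = 0.0379) and limma-voom (0.0401). The same held for edgeR with upper-quartile factors (0.0315) or the stricter filter (0.0492). Proline synthesis is represented by Aldh18a1, which makes its precursor from glutamate, and Pycr1, which forms proline. Pycr1 averaged 19.4 ± 4.76 CPM in TAZ-S89A, 12.3 ± 1.20 CPM in YAP-5SA and 32.8 ± 1.18 CPM in YAP-S127A and Aldh18a1 averaged 130.0 ± 32.8 CPM in TAZ-S89A, 64.3 ± 1.94 CPM in YAP-5SA and 131 ± 4.80 CPM in YAP-S127A. Both were lower in YAP-5SA than in YAP-S127A, Pycr1 with -1.42 ± 0.20 (SE, adjusted p = 4.04e-05) on the log2 scale and Aldh18a1 with -1.03 ± 0.20 (SE, adjusted p = 0.000723), and both were higher in TAZ-S89A than in YAP-5SA (0.66 ± 0.18 SE, adjusted p = 0.00675 for Pycr1 and 1.02 ± 0.19 SE, adjusted p = 0.000372 for Aldh18a1).

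Against YAP-S127A, Pycr1 was lower in TAZ-S89A (log2 fold change -0.76 ± 0.17 SE, adjusted p = 0.0019), and Aldh18a1 was not called (-0.01 ± 0.18 SE, adjusted p = 0.951). TAZ-S89A replicates 1 to 3 held 103, 106 and 110.0 CPM of Aldh18a1, below all YAP-S127A libraries, and replicates 4 and 5 held 164 and 167 CPM, above all of them. Without these last libraries Aldh18a1 was called lower in TAZ-S89A than in YAP-S127A (adjusted p = 0.0242, over a range of 0.0143 to 0.998).

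Among amino acid transporters, Slc7a3, a carrier of cationic amino acids on the X chromosome, had 3.09, 2.54, 1.57, 1.51 and 1.80 CPM in the 5 TAZ-S89A libraries, 2.49, 1.60 and 2.91 CPM in the 3 YAP-5SA libraries and 26.3, 24.4 and 25.7 CPM in the 3 YAP-S127A libraries. YAP-S127A was above both other groups, which overlapped. Slc7a3 was 11.9-fold lower in TAZ-S89A than in YAP-S127A (log2 fold change -3.57 ± 0.23 SE, adjusted p = 1.39e-08) and 10.9-fold lower in YAP-5SA than in YAP-S127A (-3.45 ± 0.28 SE, adjusted p = 1.7e-07), and TAZ-S89A against YAP-5SA gave -0.12 ± 0.25 (SE, adjusted p = 0.694). Slc7a5, the light chain of the LAT1 carrier of leucine and other large neutral amino acids, had 95.6, 87.6, 109, 199.9 and 195 CPM in the 5 TAZ-S89A libraries, 77.6, 69.6 and 79.8 CPM in the 3 YAP-5SA libraries and 223, 236 and 205 CPM in the 3 YAP-S127A libraries. YAP-5SA was lowest without overlap, and TAZ-S89A replicates 4 and 5 came close to YAP-S127A.

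Slc7a5 was lower in YAP-5SA than in YAP-S127A (log2 fold change -1.55 ± 0.30 SE, adjusted p = 0.000575). It was higher in TAZ-S89A than in YAP-5SA (0.86 ± 0.27 SE, adjusted p = 0.014), a call lost without YAP-5SA replicate 2 (adjusted p = 0.0555) over a range of 0.00352 to 0.101. In TAZ-S89A against YAP-S127A, Slc7a5 had -0.69 ± 0.26 (SE, adjusted p = 0.0346) as its log2 fold change. That call was lost without TAZ-S89A replicate 1 (adjusted p = 0.0743), 2 (0.0698) or 3 (0.105) and without YAP-S127A replicate 1 (0.0799), 2 (0.0991) or 3 (0.0569), over a range of 1.82e-06 to 0.105.

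Slc3a2, the heavy chain that Slc7a5 pairs with, was called in no comparison. It averaged 221 ± 29.5 CPM in TAZ-S89A, 220.5 ± 44.0 CPM in YAP-5SA and 224 ± 17.6 CPM in YAP-S127A, with log2 fold changes of -0.02 ± 0.17 (SE, adjusted p = 0.918) in TAZ-S89A against YAP-S127A, 0.00 ± 0.17 (SE, adjusted p = 0.999) in TAZ-S89A against YAP-5SA and -0.02 ± 0.19 (SE, adjusted p = 0.926) in YAP-5SA against YAP-S127A. Slc7a1, a carrier of arginine and lysine, averaged 126.7 ± 36.8 CPM in TAZ-S89A, 161 ± 21.2 CPM in YAP-5SA and 164 ± 10.6 CPM in YAP-S127A and was likewise called in none. For Slc7a1 the log2 fold change was -0.37 ± 0.21 (SE, adjusted p = 0.146) in TAZ-S89A against YAP-S127A, -0.35 ± 0.21 (SE, adjusted p = 0.169) in TAZ-S89A against YAP-5SA and -0.02 ± 0.24 (SE, adjusted p = 0.951) in YAP-5SA against YAP-S127A. Without TAZ-S89A replicates 4 and 5, Slc7a1 was called lower in TAZ-S89A than in YAP-S127A (adjusted p = 0.000646, range 0.000247 to 0.389) and than in YAP-5SA (0.000989, range 0.00028 to 0.401).

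Vldlr, a lipoprotein receptor known as an ATF4 target in stressed liver, averaged 44.2 ± 11.5 CPM in TAZ-S89A, 50.4 ± 1.56 CPM in YAP-5SA and 114 ± 2.66 CPM in YAP-S127A. For Vldlr the log2 fold change was -1.37 ± 0.17 (SE, adjusted p = 1.24e-05) in TAZ-S89A against YAP-S127A and -1.18 ± 0.20 (SE, adjusted p = 0.000191) in YAP-5SA against YAP-S127A. TAZ-S89A against YAP-5SA gave -0.19 ± 0.18 (SE, adjusted p = 0.372), and 0.00154 as the adjusted p without TAZ-S89A replicates 4 and 5, over a range of 0.00037 to 0.742. Fgf21, a hormone that stressed hepatocytes secrete, was near the limit of detection, with 9, 16, 19, 14 and 7 counts in the 5 TAZ-S89A libraries, 4, 0 and 0 counts in the 3 YAP-5SA libraries and 23, 23 and 21 counts in the 3 YAP-S127A libraries. YAP-5SA was lowest without overlap. It was called lower in YAP-5SA than in YAP-S127A (adjusted p = 0.000322) and higher in TAZ-S89A than in YAP-5SA (adjusted p = 0.00112), and no fold is given because it rests on 4 counts of 1 library. TAZ-S89A against YAP-S127A gave -0.65 ± 0.45 (SE, adjusted p = 0.234) as its log2 fold change. Under the strict filter Fgf21, like Cbs, was not tested.

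**Figure D4:**
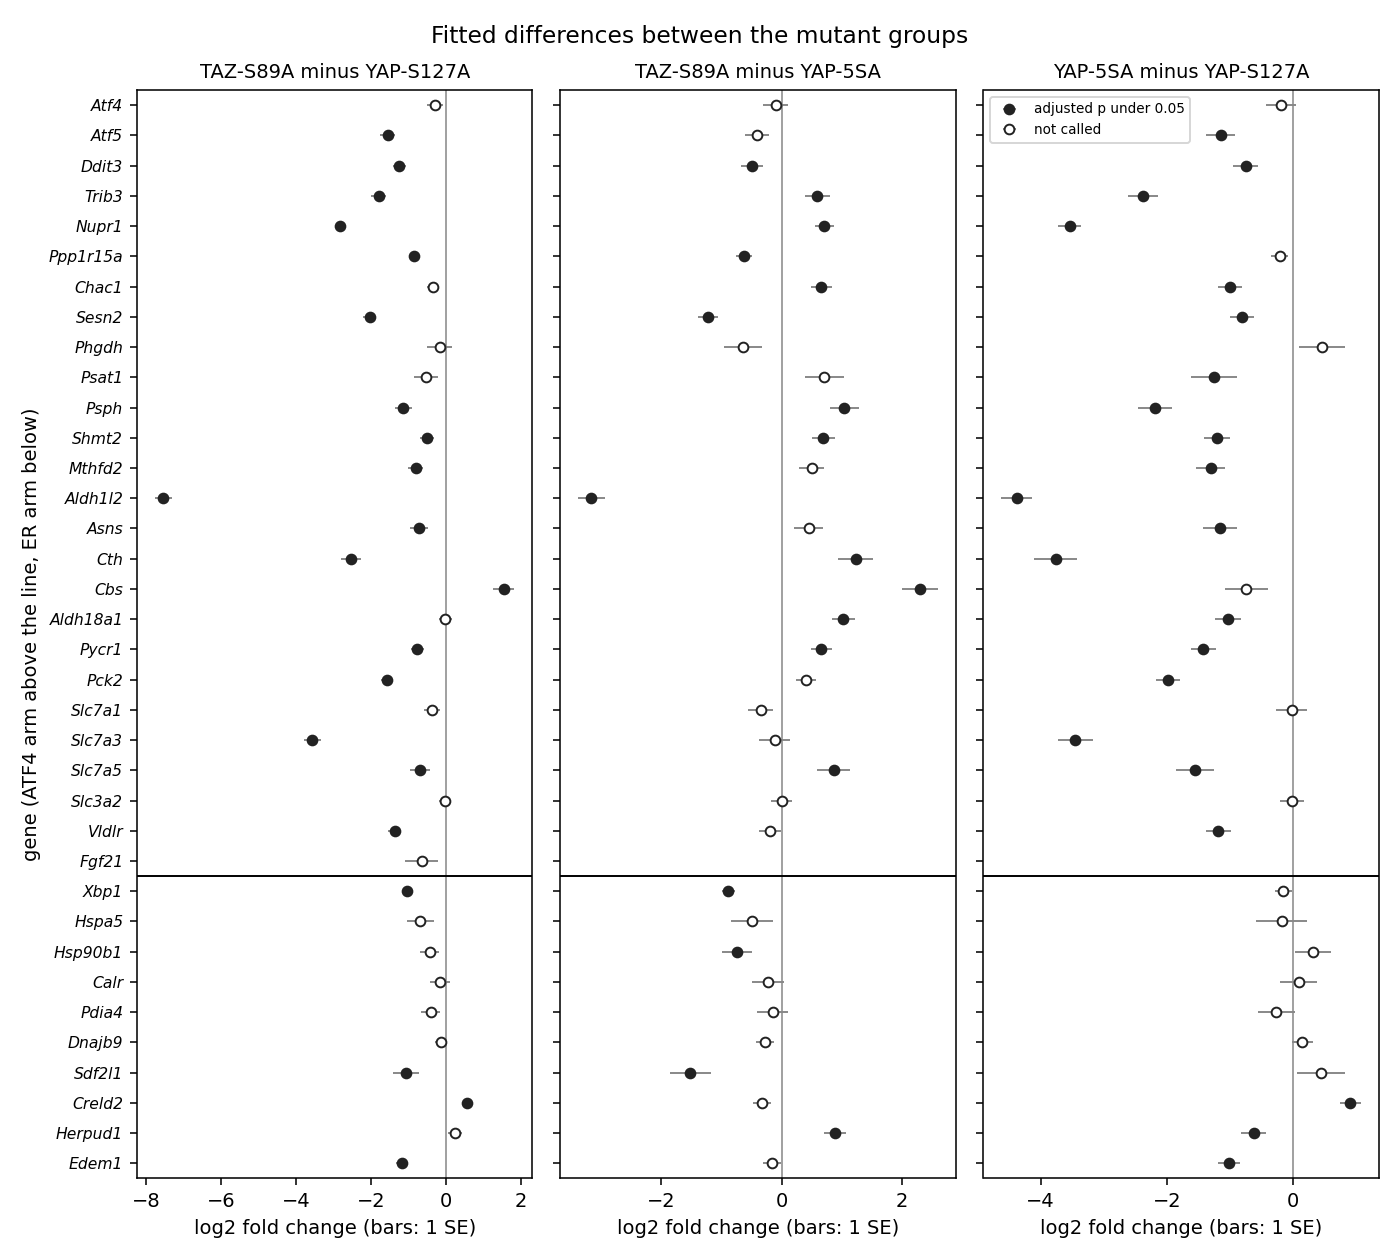
Log2 fold changes of the 36 genes with 1 SE for TAZ-S89A minus YAP-S127A (left), TAZ-S89A minus YAP-5SA (middle) and YAP-5SA minus YAP-S127A (right), on x axes of different range; filled points passed an adjusted p under 0.05, and Fgf21 is not drawn where YAP-5SA, with 4 counts in all, is compared. Filled ATF4 arm points lie left of 0 in the left panel for 17 genes and in the right panel for 20 with Fgf21 counted, while most ER arm points are open.

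In the ER arm, Xbp1, whose mRNA IRE1 splices, had 40.3, 41.3, 40.3, 48.0 and 46.1 CPM in the 5 TAZ-S89A libraries, 77.6, 82.0 and 80.4 CPM in the 3 YAP-5SA libraries and 96.5, 88.4 and 82.0 CPM in the 3 YAP-S127A libraries. TAZ-S89A was below both YAP groups, which overlapped. Xbp1 had a log2 fold change equal to -1.04 ± 0.11 (SE, adjusted p = 2.62e-06) in TAZ-S89A against YAP-S127A, -0.89 ± 0.11 (SE, adjusted p = 1.14e-05) in TAZ-S89A against YAP-5SA and -0.15 ± 0.13 (SE, adjusted p = 0.328) in YAP-5SA against YAP-S127A. Spliced and unspliced forms are counted together here.

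Hspa5, the ER chaperone BiP, whose promoter with an ERSE match is printed above, had 640.1, 748, 1401, 737 and 710.0 CPM in the 5 TAZ-S89A libraries, 879, 1971 and 730.1 CPM in the 3 YAP-5SA libraries and 1092, 1230.2 and 1740.4 CPM in the 3 YAP-S127A libraries. The high library in each group, TAZ-S89A replicate 3, YAP-5SA replicate 2 and YAP-S127A replicate 3, exceeded the others of its group, and the groups overlapped. Its log2 fold change was -0.68 ± 0.35 (SE, adjusted p = 0.114) in TAZ-S89A against YAP-S127A, -0.49 ± 0.35 (SE, adjusted p = 0.246) in TAZ-S89A against YAP-5SA and -0.18 ± 0.40 (SE, adjusted p = 0.719) in YAP-5SA against YAP-S127A. Without TAZ-S89A replicate 3 the first of these had an adjusted p of 0.0275, over a range of 0.0275 to 0.367. Calr, the calcium-binding lectin chaperone calreticulin, had 516, 532, 931, 654 and 641 CPM in the 5 TAZ-S89A libraries, 628, 1104 and 580.4 CPM in the 3 YAP-5SA libraries and 629.6, 694 and 851 CPM in the 3 YAP-S127A libraries. The same library was highest in each group. Calr was not called in any comparison, with log2 fold changes of -0.15 ± 0.27 (SE, adjusted p = 0.662) in TAZ-S89A against YAP-S127A, -0.23 ± 0.27 (SE, adjusted p = 0.473) in TAZ-S89A against YAP-5SA and 0.09 ± 0.30 (SE, adjusted p = 0.822) in YAP-5SA against YAP-S127A.

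Pdia4, a disulphide isomerase, averaged 105 ± 29.9 CPM in TAZ-S89A, 116 ± 47.5 CPM in YAP-5SA and 139.7 ± 27.9 CPM in YAP-S127A, and Dnajb9, a BiP cochaperone, averaged 18.4 ± 2.99 CPM in TAZ-S89A, 22.3 ± 4.39 CPM in YAP-5SA and 20.1 ± 0.954 CPM in YAP-S127A. Neither was called, with adjusted p from 0.144 to 0.652 over the 3 comparisons of both. Hsp90b1, the ER form of HSP90, had 303, 296, 465, 465 and 466 CPM in the 5 TAZ-S89A libraries, 540.0, 929 and 533 CPM in the 3 YAP-5SA libraries and 499.6, 511 and 598 CPM in the 3 YAP-S127A libraries. YAP-5SA replicate 2 was far above the rest. Its log2 fold change was -0.74 ± 0.25 (SE, adjusted p = 0.019) in TAZ-S89A against YAP-5SA, a call lost without YAP-5SA replicate 2 (adjusted p = 0.152) over a range of 0.00352 to 0.152. TAZ-S89A against YAP-S127A gave -0.43 ± 0.25 (SE, adjusted p = 0.157), with adjusted p = 0.0447 without TAZ-S89A replicates 4 and 5 and a range of 0.0361 to 0.356, and YAP-5SA against YAP-S127A gave 0.32 ± 0.28 (SE, adjusted p = 0.357).

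Sdf2l1, a component of ER chaperone complexes, had 30.9, 32.5, 52.8, 16.9 and 17.7 CPM in the 5 TAZ-S89A libraries, 77.8, 126 and 55.6 CPM in the 3 YAP-5SA libraries and 51.2, 60.6 and 78.2 CPM in the 3 YAP-S127A libraries. The TAZ-S89A libraries were below those of YAP-5SA, and TAZ-S89A replicate 3 overlapped YAP-S127A. Its log2 fold change was -1.52 ± 0.34 (SE, adjusted p = 0.00148) in TAZ-S89A against YAP-5SA and 0.45 ± 0.38 (SE, adjusted p = 0.339) in YAP-5SA against YAP-S127A. TAZ-S89A against YAP-S127A gave -1.07 ± 0.34 (SE, adjusted p = 0.0148), a call lost without YAP-S127A replicate 3 (adjusted p = 0.0706) over a range of 0.00123 to 0.0748. Creld2, a secreted ER stress-induced protein with disulphide isomerase activity, ran the other way from most of the list, with 38.3, 38.6, 49.7, 48.9 and 49.6 CPM in the 5 TAZ-S89A libraries, 50.6, 69.2 and 50.2 CPM in the 3 YAP-5SA libraries and 29.5, 28.0 and 33.1 CPM in the 3 YAP-S127A libraries. YAP-S127A was lowest without overlap.

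Creld2 was 1.49-fold higher in TAZ-S89A than in YAP-S127A (log2 fold change 0.57 ± 0.15 SE, adjusted p = 0.00498) and 1.88-fold higher in YAP-5SA than in YAP-S127A (0.91 ± 0.17 SE, adjusted p = 0.000373). In TAZ-S89A against YAP-5SA it was -0.33 ± 0.15 (SE, adjusted p = 0.0649), with adjusted p = 0.0382 without TAZ-S89A replicates 4 and 5 and a range of 0.0207 to 0.358. On its chromosome 15, all genes tested had a median of 0.30 in the first comparison and 0.62 in YAP-5SA against YAP-S127A.

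Edem1 and Herpud1 act in ER-associated degradation, Edem1 by recognising misfolded glycoproteins and Herpud1 as part of the membrane complex that exports them. Edem1 had 33.6, 34.9, 26.6, 43.7 and 41.1 CPM in the 5 TAZ-S89A libraries, 38.6, 39.2 and 42.5 CPM in the 3 YAP-5SA libraries and 88.2, 77.8 and 76.3 CPM in the 3 YAP-S127A libraries. YAP-S127A was above both other groups, and Edem1 was 2.25-fold lower in TAZ-S89A (log2 fold change -1.17 ± 0.15 SE, adjusted p = 1.22e-05) and 2.01-fold lower in YAP-5SA (-1.01 ± 0.17 SE, adjusted p = 0.000172). TAZ-S89A against YAP-5SA gave -0.16 ± 0.15 (SE, adjusted p = 0.388), with adjusted p = 0.0418 without TAZ-S89A replicates 4 and 5 and a range of 0.0231 to 0.884. Herpud1, which has both a CARE and an ERSE-II match, had 50.4, 56.6, 86.1, 52.6 and 54.1 CPM in the 5 TAZ-S89A libraries, 31.8, 38.5 and 27.6 CPM in the 3 YAP-5SA libraries and 45.7, 50.2 and 55.0 CPM in the 3 YAP-S127A libraries. YAP-5SA was lowest without overlap and TAZ-S89A overlapped YAP-S127A.

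Herpud1 was higher in TAZ-S89A than in YAP-5SA (log2 fold change 0.88 ± 0.18 SE, adjusted p = 0.00101) and not called against YAP-S127A (0.25 ± 0.18 SE, adjusted p = 0.246). In YAP-5SA against YAP-S127A it was -0.62 ± 0.20 (SE, adjusted p = 0.0171), a call lost without YAP-5SA replicate 1 (adjusted p = 0.0528) or replicate 3 (0.074) or YAP-S127A replicate 3 (0.0606), over a range of 0.00239 to 0.074. Without any 1 of these libraries, the ER arm genes called lower in that comparison numbered 1, not 2.

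Set beside the promoters, all 8 ATF4 arm genes with a CARE match were called lower in YAP-5SA than in YAP-S127A (median log2 fold change -1.70), as were 8 of the 14 with a promoter and no match (median -0.78) and 27.0% of all genes tested. One of the 8, Fgf21, rests on 4 counts in YAP-5SA. Cth, Slc7a3, Slc7a5 and Aldh1l2 had no promoter to search and are in neither set. All were called lower in YAP-5SA than in YAP-S127A, with log2 fold changes of -3.76, -3.45, -1.55 and -4.38 in that order. In TAZ-S89A against YAP-S127A, 6 of the 8 were called lower (median -1.06), against 7 of the 14 (median -0.53) and 30.6% of all genes. In TAZ-S89A against YAP-5SA, 5 of the 8 were called higher and 0 lower, against 4 higher and 3 lower of the 14, and 26.9% higher and 31.0% lower of all genes. Of the 4 ER arm genes with an ERSE match, 3 were not called in each comparison. Of the 6 without a match, 3 were not called in either TAZ-S89A comparison and 4 in YAP-5SA against YAP-S127A. Of all genes tested, 57.6% were called in TAZ-S89A against YAP-S127A, 57.9% in TAZ-S89A against YAP-5SA and 55.2% between the YAP groups. With so few genes, the ERSE counts cannot be told apart from these. These counts carry no test.

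Levels can be ranked between genes only per length, on the authors' nRPKM scale. Averaged over the 3 groups, Hspa5 was highest of the 36, at a mean level of 353 nRPKM, followed by Calr at 302 nRPKM, Atf4 at 203 nRPKM, Hsp90b1 at 159 nRPKM and Psat1 at 154 nRPKM. Lowest were Cbs at 0.437 nRPKM and Fgf21 at 0.303 nRPKM. The order differed within groups: Calr (277 nRPKM) was above Hspa5 (265 nRPKM) in TAZ-S89A, Psat1 was above Hsp90b1 in TAZ-S89A (150.1 and 119 nRPKM) and in YAP-S127A (219 and 159 nRPKM), and Fgf21 (0.534 nRPKM) was above Cbs (0.294 nRPKM) in YAP-S127A. Atf4 mRNA was thus abundant in all groups, at 185, 197 and 226 nRPKM in TAZ-S89A, YAP-5SA and YAP-S127A. Nupr1 was at 17.9 nRPKM in TAZ-S89A, 11 nRPKM in YAP-5SA and 128 nRPKM in YAP-S127A, and Aldh1l2 at 0.0890, 0.790 and 16.5 nRPKM in the same order. In YAP-S127A, Nupr1 was thus close to Atf5 (138 nRPKM) and Psph (136 nRPKM), and in the other groups it was below both.

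Within TAZ-S89A, the libraries of the second ID series (replicates 4 and 5) had other levels of many of these genes than replicates 1 to 3. Both lay above all of replicates 1 to 3 in 14 of the 26 ATF4 arm genes and 2 of the 10 ER arm genes, where 23.9% of all genes tested did so. Both lay below in 5 ATF4 arm and 2 ER arm genes, where 29.4% of all genes did so. Cth (2.06 times), Slc7a5 (2.03 times) and Asns (1.69 times) were among the higher, and Phgdh (0.570 times), Psat1 (0.661 times) and Sdf2l1 (0.446 times) among the lower. The median ratio of replicates 4 and 5 to replicates 1 to 3 was 1.33 in the ATF4 arm and 0.966 in the ER arm, beside 0.943 over all genes. The ID series cannot be told apart from depth, since these 2 libraries are also the smallest.

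Other genes of the pathway, 95 in 7 lists, were counted the same way. Over all genes tested, 27.0% were called higher and 30.6% lower in TAZ-S89A than in YAP-S127A. The shares were 26.9% and 31.0% in TAZ-S89A against YAP-5SA, and 28.2% and 27.0% in YAP-5SA against YAP-S127A. The list counts here and in the following paragraphs stand beside these shares and carry no test. Of 11 genes for the kinases and phosphatase of eIF2, eIF2 and eIF2B, 6 were called higher and 1 lower in TAZ-S89A than in YAP-S127A, 3 higher and 2 lower in TAZ-S89A than in YAP-5SA, and 3 higher and 1 lower in YAP-5SA than in YAP-S127A. Ppp1r15b, the constitutive eIF2 phosphatase subunit, had 0.87 ± 0.15 (SE, adjusted p = 0.000177) as its log2 fold change in TAZ-S89A against YAP-S127A and 1.32 ± 0.16 (SE, adjusted p = 1e-05) in YAP-5SA against YAP-S127A. Eif2ak3, the gene of PERK, was lower in TAZ-S89A than in YAP-S127A, at -0.69 ± 0.14 (SE, adjusted p = 0.000989). Eif2ak1, the gene of HRI, was higher in that comparison (0.88 ± 0.16 SE, adjusted p = 0.000276). So was Eif2ak2, the gene of PKR (0.85 ± 0.12 SE, adjusted p = 3.97e-05). Eif2ak4, the gene of GCN2, was not called there (-0.28 ± 0.13 SE, adjusted p = 0.0815). Of 17 ATF4 partners and further targets, 3 were called higher and 9 lower in TAZ-S89A than in YAP-S127A, 6 higher and 5 lower in TAZ-S89A than in YAP-5SA, and 4 higher and 9 lower in YAP-5SA than in YAP-S127A. Bcat1, which transaminates branched-chain amino acids, averaged 7.0 ± 0.457 CPM in YAP-5SA and 101 ± 2.09 CPM in YAP-S127A (log2 fold change -3.85 ± 0.29 SE, adjusted p = 8.55e-08). Gdf15, a stress-induced hormone, was highest in YAP-5SA, with 3.58 ± 1.10 CPM in TAZ-S89A and 41.5 ± 5.12 CPM in YAP-5SA (log2 fold change -3.55 ± 0.20 SE, adjusted p = 2.18e-09) and a change of 1.01 ± 0.21 (SE, adjusted p = 0.00109) in YAP-5SA against YAP-S127A. Atf3, a stress-induced transcription factor, was likewise highest in YAP-5SA (log2 fold change 1.84 ± 0.17 SE, adjusted p = 5.6e-07 against YAP-S127A).

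Of the 9 cytosolic and remaining one-carbon genes, 5 were called higher and 3 lower in YAP-5SA than in YAP-S127A, 4 higher and 2 lower in TAZ-S89A than in YAP-S127A, and 2 higher and 4 lower in TAZ-S89A than in YAP-5SA. Gldc, the decarboxylase of glycine cleavage, averaged 26.9 ± 0.796 CPM in YAP-5SA and 2.58 ± 0.295 CPM in YAP-S127A (log2 fold change 3.38 ± 0.21 SE, adjusted p = 1.21e-08). Mthfd2l, a mitochondrial relative of Mthfd2, was higher in TAZ-S89A than in YAP-5SA (log2 fold change 2.13 ± 0.16 SE, adjusted p = 7.59e-08) and than in YAP-S127A (1.31 ± 0.16 SE, adjusted p = 7.74e-06), where Mthfd2 itself was lower. Of 18 cytosolic aminoacyl-tRNA synthetases, which charge tRNAs, 2 were called higher and 4 lower in TAZ-S89A than in YAP-S127A, 4 higher and 3 lower in TAZ-S89A than in YAP-5SA, and 2 higher and 6 lower in YAP-5SA than in YAP-S127A. Vars, for valine, was lower in YAP-5SA than in YAP-S127A (log2 fold change -1.48 ± 0.21 SE, adjusted p = 3.76e-05), and Cars, for cysteine, was lower in TAZ-S89A than in YAP-S127A (-1.14 ± 0.13 SE, adjusted p = 5.05e-06).

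Of the 8 unfolded protein response sensors and transducers, 2 were called higher and 3 lower in TAZ-S89A than in YAP-S127A, 2 higher and 4 lower in TAZ-S89A than in YAP-5SA, and 3 higher and 2 lower in YAP-5SA than in YAP-S127A. Ern1, the gene of IRE1, was lower in TAZ-S89A (log2 fold change -1.20 ± 0.16 SE, adjusted p = 1.9e-05) and in YAP-5SA (-1.0 ± 0.18 SE, adjusted p = 0.000364) than in YAP-S127A. Wfs1, an ER membrane protein, averaged 349.8 ± 54.0 CPM in YAP-5SA and 28.0 ± 1.65 CPM in YAP-S127A (log2 fold change 3.64 ± 0.28 SE, adjusted p = 1.16e-07). Dnajc3, the BiP cochaperone p58IPK, was lower in TAZ-S89A than in YAP-S127A (-1.50 ± 0.16 SE, adjusted p = 2.62e-06) and than in YAP-5SA (-1.84 ± 0.16 SE, adjusted p = 2.89e-07).

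Among 22 further ER folding and secretory genes, 1 was called higher and 9 lower in TAZ-S89A than in YAP-S127A, 1 higher and 3 lower in TAZ-S89A than in YAP-5SA, and 2 higher and 4 lower in YAP-5SA than in YAP-S127A. Fkbp11, a prolyl isomerase of secretory cells, averaged 1.17 ± 0.490 CPM in TAZ-S89A and 171 ± 5.65 CPM in YAP-S127A (log2 fold change -7.14 ± 0.25 SE, adjusted p = 3.06e-11), and against YAP-5SA its change in TAZ-S89A was -7.16 ± 0.25 (SE, adjusted p = 2.5e-11). Manf, a secreted ER stress protein, averaged 86.3 ± 10.1 CPM in TAZ-S89A and 321 ± 32.0 CPM in YAP-S127A (log2 fold change -1.90 ± 0.17 SE, adjusted p = 3.05e-07). Crebrf, a regulator of the unfolded protein response, was higher in TAZ-S89A than in YAP-S127A (1.83 ± 0.14 SE, adjusted p = 8.51e-08) and than in YAP-5SA (1.45 ± 0.14 SE, adjusted p = 6.52e-07). Of 10 other ER-associated degradation genes, 2 were called higher and 3 lower in TAZ-S89A than in YAP-S127A, 0 higher and 6 lower in TAZ-S89A than in YAP-5SA, and 3 higher and 2 lower in YAP-5SA than in YAP-S127A. Selenos, which helps draw misfolded proteins out of the ER, was lower in TAZ-S89A than in YAP-S127A (log2 fold change -2.07 ± 0.19 SE, adjusted p = 4.39e-07) and than in YAP-5SA (-2.21 ± 0.19 SE, adjusted p = 1.95e-07).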

How the data were processed

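PolyA RNA of 11 libraries was sequenced, and replicate numbers only name them. The deposited tables give, per the file headers, a count column (the number of reads with a unique alignment in an Entrez gene) and nRPKM (an RPKM that the authors scaled by a size factor). Reads were aligned with GSNAP to GRCm38, per the submitters' processing notes. Neither the version of the aligner nor the counting tool, the release of the annotation or the strandedness is given in the sources used here. A read with more than 1 best position is not counted, so genes with near-identical copies may be undercounted.

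Symbols, positions and promoters came from RefSeq tables (GRCm38.p6), which matched 31049 of 36528 gene IDs; the rest, with 2.91% of all counts, were retained in library totals. All 36 members matched. Cth, Slc7a3, Slc7a5 and Aldh1l2 have no promoter in the table; where a gene had more than 1, a match in any was counted. Counts were tested with edgeR 4.0.16 in R 4.3.3: after filterByExpr with the groups, 18224 genes remained and 18304 were left out, TMM gave the scaling (CPM and log2 CPM, with a prior count of 2, are on that scale), and a robust quasi-likelihood model with group as its only term was fitted to all 11 libraries. P-values were adjusted by the Benjamini-Hochberg method over all genes tested, and genes were called at 0.05. nRPKM served to rank genes by level. The fit was tested on simulated counts first. Total counts of 20071144 to 49159713 per library set the counting error.

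All 36 genes are named. Of the 7 other lists, up to 3 called genes in each direction with the largest fold change could be named, where the average log2 CPM reached 2, and a selection of these is given. The members and lists were chosen with earlier results of these data known. As alternatives, normalization used upper-quartile or RLE factors, tests used limma-voom (limma 3.58.1) or DESeq2 1.42.0, and the low-count filter was dropped or made strict. Others fitted only the groups compared, added the ID series as a term or dropped TAZ-S89A replicates 4 and 5, and used a fold-change limit, another prior count, medians of genes, and the data without each library in turn. Another 2, chosen after seeing the data, left out the least correlated library of each group or summed the closest TAZ-S89A pairs.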

Additional observations from a re-analysis of the deposited data

Results flagged for a closer look

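In 7 of the 36 genes, TAZ-S89A replicate 3 stood far above the other 4 libraries of its group, by a gap that takes up most of the group's range. The cut-off used flags about 1 in 20 groups of independent libraries by chance, and genes of 1 library are not independent. How often this library stood out over all genes tested was not counted. The 7 genes therefore have no background share beside them and are not read as particular to this list. The level of this library was 539 CPM for Atf4 (others 339 to 360.4 CPM), 133 CPM for Phgdh (others 47.4 to 61.1 CPM), 845 CPM for Psat1 (others 378 to 445 CPM) and 203 CPM for Psph (others 109 to 129.8 CPM). In the ER arm it was 1401 CPM for Hspa5 (others 640.1 to 748 CPM), 156 CPM for Pdia4 (others 81.9 to 103 CPM) and 86.1 CPM for Herpud1 (others 50.4 to 56.6 CPM). The groups of 3 libraries were not examined in this way.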

How the results depend on the processing

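No paired analysis was possible because the labels give no replicate numbers. Of 108 comparisons of single genes, 82 kept their call and 26 lost or gained it under some of the alternatives other than the fold-change limit, where they were tested, and none reversed. The alternatives named beside single genes are a selection, while the ranges of adjusted p cover every alternative fit in which the gene was tested. Of the 64 called, 23 had a log2 fold change under 1 in size. With a log2 fold change of 1 or more in size also required, ATF4 arm calls in TAZ-S89A against YAP-S127A were 1 higher (Cbs) and 11 lower. Against YAP-5SA they were 5 higher and 2 lower, and in YAP-5SA against YAP-S127A 0 higher and 17 lower. The ER arm then had 0 higher and 3 lower in TAZ-S89A against YAP-S127A and 0 higher and 1 lower against YAP-5SA. It had 0 higher and 1 lower in YAP-5SA against YAP-S127A. Over all genes tested, 32.2%, 33.8% and 34.4% were called at that limit, in the same order of comparisons. The strict filter removed Cbs and Fgf21, ending the Fgf21 calls of both YAP-5SA comparisons and leaving 0 ATF4 arm genes higher in TAZ-S89A than in YAP-S127A. With the ID series as a term in the model, or without TAZ-S89A replicates 4 and 5, 5 ER arm genes, not 3, were called lower in TAZ-S89A than in YAP-5SA. These settings are not separate checks, since no YAP library is in the second ID series, and the cause was not tested. Leaving out 1 library at a time gave 1 to 2 ER arm genes called lower in YAP-5SA than in YAP-S127A, and 14 to 17 and 20 to 21 ATF4 arm genes lower than YAP-S127A in TAZ-S89A and YAP-5SA. With medians of genes in place of means, the ATF4 arm minus ER arm difference of TAZ-S89A minus YAP-S127A was -0.49, not -0.83. Both alternatives that follow were added after the data were seen: leaving out the least correlated library of each group (TAZ-S89A replicate 4, YAP-5SA replicate 2, YAP-S127A replicate 3) gave 17 and 21 of those ATF4 arm counts, and summing the closest TAZ-S89A pairs gave 16 and 20. With 5, 3 and 3 libraries, a gene that was not called may still differ.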
